A study of Homo sapiens with 33 samples.

Results

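LSB3i and LSB cultures were compared at day 5 on 6 of the 33 Illumina bead arrays of a differentiation time course, arrays A, B and C of each treatment, chosen by their treatment and time labels. The cells were of the established human embryonic stem cell line H9 (WA-09), which was kept on mouse embryonic fibroblasts and moved to Matrigel for differentiation. LSB3i cells were grown with LDN-193189, SB431542, CHIR 99021, DAPT and SU5402 and are labelled a nociceptor differentiation. LSB cells were grown with LDN-193189 and SB431542 alone and are labelled a neural differentiation by dual SMAD inhibition. Both treatments therefore held the first 2 inhibitors and differed by the other 3 together, so the comparison cannot tell any single one apart. The labels do not give the day on which each agent was added, and nothing in them tells whether arrays A, B and C were separate cultures. All p-values therefore rest on the spread from array to array, which may be technical. The comparison covers 10038 genes, each measured by 1 probe that was detected above the array's negative controls on all 3 arrays of at least 1 of the 11 groups of the series. Of these, 8453 genes were detected on all 3 arrays of at least 1 day 5 group.

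LDN-193189 blocks BMP type I receptors and SB431542 blocks the receptors of TGF-beta, activin and nodal, and together they direct pluripotent cells towards anterior neuroectoderm. CHIR 99021 inhibits the kinase GSK3, which otherwise marks beta-catenin for destruction, so that beta-catenin and TCF/LEF factors transcribe Wnt targets, many of which feed back on the pathway. DAPT inhibits gamma-secretase, the protease that frees the Notch intracellular domain to join RBPJ and transcribe HES and HEY repressors. SU5402 inhibits the kinases of FGF and VEGF receptors, whose ERK branch transcribes its own antagonists such as the Sprouty genes. In the embryo, Wnt and FGF signals set the position of the neural plate and its border, and Notch holds neural progenitors back from becoming neurons.

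At day 5 readouts of all 3 pathways differed between the treatments. Wnt feedback genes such as AXIN2 and DKK1 were higher in LSB3i. The Notch effectors HES5 and HES1 and the FGF antagonists SPRY1 and SPRY2 were lower, as were forebrain and eye field genes such as LHX2 and RAX. Some border and dorsal genes, such as MSX1 and WNT1, and the sensory regulator POU4F1 were higher. WNT1 and POU4F1 were detected on LSB3i arrays B and C only. With the day 5 groups fitted alone they were not called (adjusted p = 0.109 and 0.0611, limma). In all, 323 of 10038 genes (3.22%) reached an adjusted p under 0.05 with a change of 2-fold or more (limma, Benjamini-Hochberg). LSB3i was higher in 110 (1.1%) and lower in 213 (2.12%). These are the called genes, and rose and fell are used only of them. In 319 of the 323 the 3 LSB3i arrays lay all above or all below the 3 LSB arrays, as they did in 36% of all genes tested (17.5% higher and 18.5% lower in LSB3i). Of the 104 called genes given with their values below, 52 were called under every alternative in which they were tested, and 52 lost their call under at least 1. The median difference over all genes was -0.00038 on the log2 scale. Expression was measured in bulk RNA, so fewer cells of a type and less RNA per cell cannot be told apart.

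**Figure D1:**
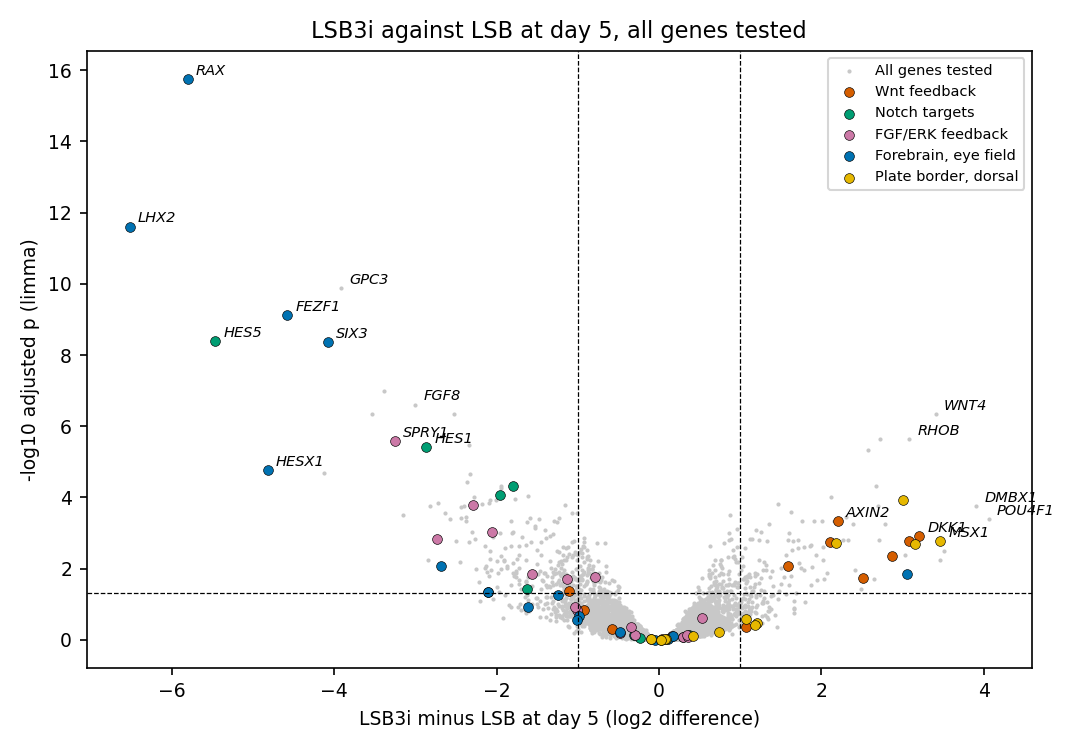
Difference between LSB3i and LSB at day 5 (log2, x axis) against the negative log10 of the adjusted p (y axis) for the 10038 genes tested, with 5 gene lists in colour and the thresholds as dashed lines. Forebrain and Notch genes lie at the far left, down to LHX2 at a measured -6.52, and Wnt feedback genes lie at the right up to DKK1 at 3.21 and border genes up to MSX1 at 3.46.

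Array A of LSB3i stood apart from arrays B and C and is therefore given apart. Its log2 values over all genes correlated at 0.959 with array B and 0.958 with array C, against 0.987 between B and C. They correlated at 0.989 with arrays B and C of LSB3i at day 3 and at 0.954 with the LSB arrays of day 5. The array had a mean signal of 677, within the range of 626 to 768 of the 6 arrays, and the most detected probes among them, 13620 in a range from 11847. When array A was left out, 368 genes (3.67%) were called, 118 higher (1.18%) and 250 lower (2.49%). Of these, 241 were also called with all arrays, 127 were called only without array A and 82 only with it. Over the 368 genes, array A showed a median of 55.7% of the difference that arrays B and C showed from LSB (quartiles 18.7% and 90.9%). These genes were chosen on arrays B and C, which by itself lowers the share on array A, so the values describe the array and test nothing. The array showed under 50% in 166 genes and lay on the other side of the LSB mean in 61. For 302 of the 368 it was nearer to arrays B and C of LSB3i at day 3 than to those of its own day. Values of LSB3i below are given in the order A, B, C, and those of LSB likewise.

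**Figure D2:**
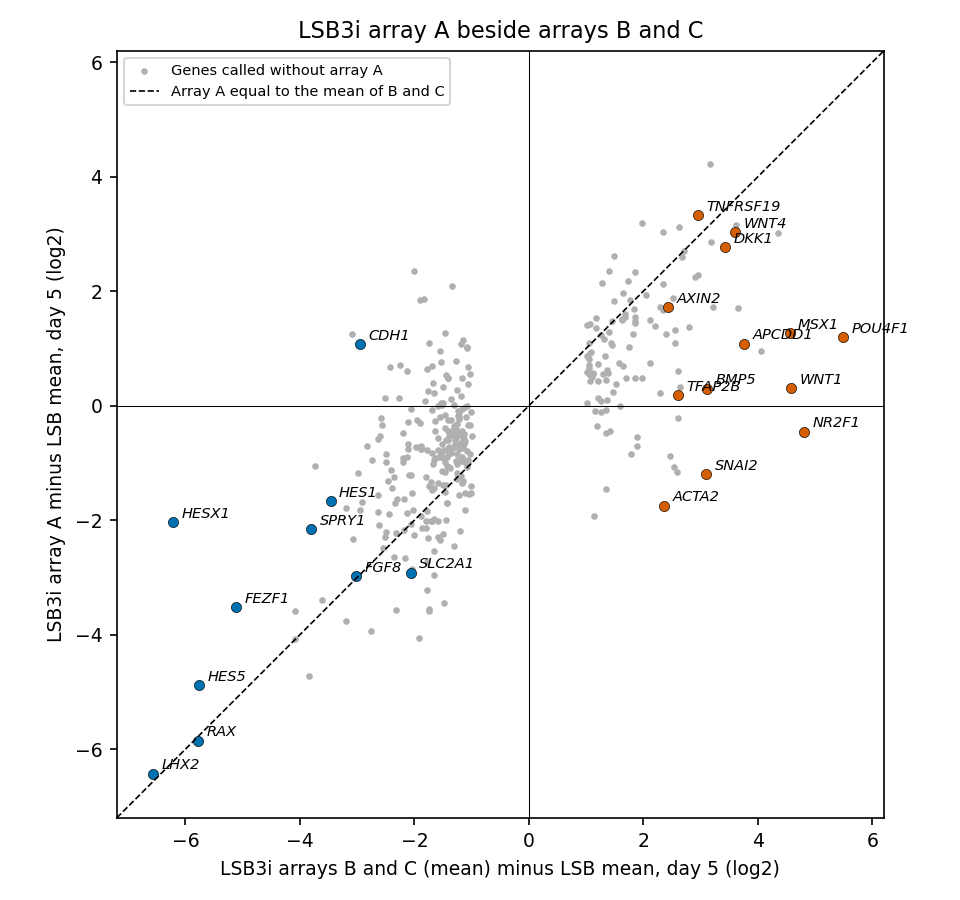
LSB3i array A minus the LSB mean (y axis, log2) against the mean of LSB3i arrays B and C minus the LSB mean (x axis, log2) at day 5, for the 368 genes called when array A was left out, with the dashed line where they are equal. LHX2, RAX, FGF8 and DKK1 lie near the line, whereas WNT1, NR2F1, BMP5 and TFAP2B lie near 0 on the y axis, and CDH1, SNAI2 and ACTA2 lie on the other side of the LSB mean.

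Notch targets are given first, with the promoters of the HES genes, because DAPT acts at the step that feeds RBPJ. RBPJ is the DNA-binding partner of Notch, and the letters GTGGGAA on either strand (TTCCCAC on the other) are a core of its binding sites. They occurred in the 250 bases before the start of 5 of the 8 Notch targets that had both a test and a RefSeq promoter (GRCh38.p14), against 5.43% of 35116 promoters. The 120 bases before the start of the 3 called HES genes are printed 5′ to 3′ on the strand of the gene, with these letters in capitals, and their first base lies 85 bases before the start in HES1, 77 in HES4 and 81 in HES5. A second match in HES5, on the other strand 224 bases before the start, lies outside the stretch printed.
HES1, chr3:194136028-194136147, plus strand: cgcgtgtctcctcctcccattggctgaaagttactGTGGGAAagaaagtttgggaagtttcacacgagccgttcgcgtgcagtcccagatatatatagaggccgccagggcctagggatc
HES4, chr1:1000098-1000217, minus strand: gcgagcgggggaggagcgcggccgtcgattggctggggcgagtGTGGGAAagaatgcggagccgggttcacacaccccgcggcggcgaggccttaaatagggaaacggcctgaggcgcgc
HES5, chr1:2530264-2530383, minus strand: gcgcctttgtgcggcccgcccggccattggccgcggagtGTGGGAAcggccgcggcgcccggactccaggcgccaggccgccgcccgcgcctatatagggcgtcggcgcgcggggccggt
HEYL and HEY2 also held the letters (178 and 213 bases before their starts), and neither was called. A match to these letters is a description of the sequence and does not show binding.

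HES5, a basic helix-loop-helix repressor that keeps neural progenitors undifferentiated, had normalized log2 signals of 5.89, 4.96 and 5.08 in LSB3i, against 10.74, 10.74 and 10.85 in LSB. It was not well above background on any LSB3i array and was at least 17.9-fold lower (adjusted p = 3.99e-09). Such a bound sets the mean of the brighter group against the lowest signal still detected on each array of the other, or the probe's own signal where that was higher. Genes detected on only some arrays of a group keep their measured values. HES1, WNT5B, FZD5, SPRED2, HESX1, FEZF1, MXI1, EPHA1, NPTX1 and RIPPLY3 were above background on 1 LSB3i array, MYC, SOX3, DACH1 and P4HA2 on 2 LSB3i arrays, COLEC12 on 1 LSB array, and ALX1 and IRX5 on 2 LSB arrays. HES1, its relative, had 7.85, 6.12 and 6.00 in LSB3i and 9.64, 9.60 and 9.32 in LSB, a difference of -2.86 ± 0.34 (log2 ± SE, adjusted p = 3.92e-06). Array A was the highest LSB3i array for both genes, and for both the groups did not overlap. HES4 had 8.86, 8.75 and 8.54 in LSB3i, against 10.58, 10.68 and 10.78 in LSB (-1.96 ± 0.28, log2 ± SE as throughout, adjusted p = 8.73e-05). LFNG, a glycosyltransferase that modifies Notch receptors and is itself induced by Notch, had 9.15, 9.51 and 9.48 in LSB3i, against 11.07, 11.04 and 11.42 in LSB (-1.8 ± 0.25, adjusted p = 4.88e-05). For HES4 and LFNG the 3 LSB3i arrays lay close together, array A included. The other LFNG probe differed by only -0.47. HEY1, at background in LSB3i, was at least 1.34-fold lower (adjusted p = 0.038), but a second probe for it differed by 0.33 in the other direction, and the call was lost without array A (adjusted p = 0.0966).

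The genes were also grouped in lists by known role, some genes standing in more than 1 list. Of 9 Notch targets tested, 5 fell in LSB3i and 0 rose, against 2.12% and 1.1% of all genes, with a median of -1.62, or -0.42 with genes at background set to the floor of detection. The same 2 shares of all genes are the background for each list below. Without array A 4 of the Notch targets fell. The median over the list was -1.67 on array A alone and -1.55 on arrays B and C, although array A was the weakest LSB3i array for HES1, HES4 and HES5. Of 21 Notch ligands, receptors and cofactors, 2 fell and 0 rose. DLL1, a ligand, had 8.31, 9.55 and 9.04 in LSB3i, against 10.38, 10.46 and 10.65 in LSB (-1.53 ± 0.27, adjusted p = 0.000714). The receptor gene NOTCH1 had 8.64, 7.73 and 8.18 in LSB3i, against 9.45, 9.35 and 9.65 in LSB (-1.3 ± 0.32, adjusted p = 0.0144), and was not called without LSB3i array B (adjusted p = 0.111). The other 19 genes, which include RBPJ and the gamma-secretase subunits PSEN2, NCSTN, APH1A and PSENEN, did not pass. Of 10 proneural genes, which drive neurons out of the progenitor state, 2 rose and 0 fell. GADD45G, a growth arrest gene, had 8.99, 8.12 and 8.49 in LSB3i, against 5.81, 5.97 and 6.09 in LSB, where it was at background, and was at least 3.68-fold higher (adjusted p = 4.7e-06). EBF1, a transcription factor of early neurons, was at least 1.83-fold higher (adjusted p = 0.000364).

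**Figure D3:**
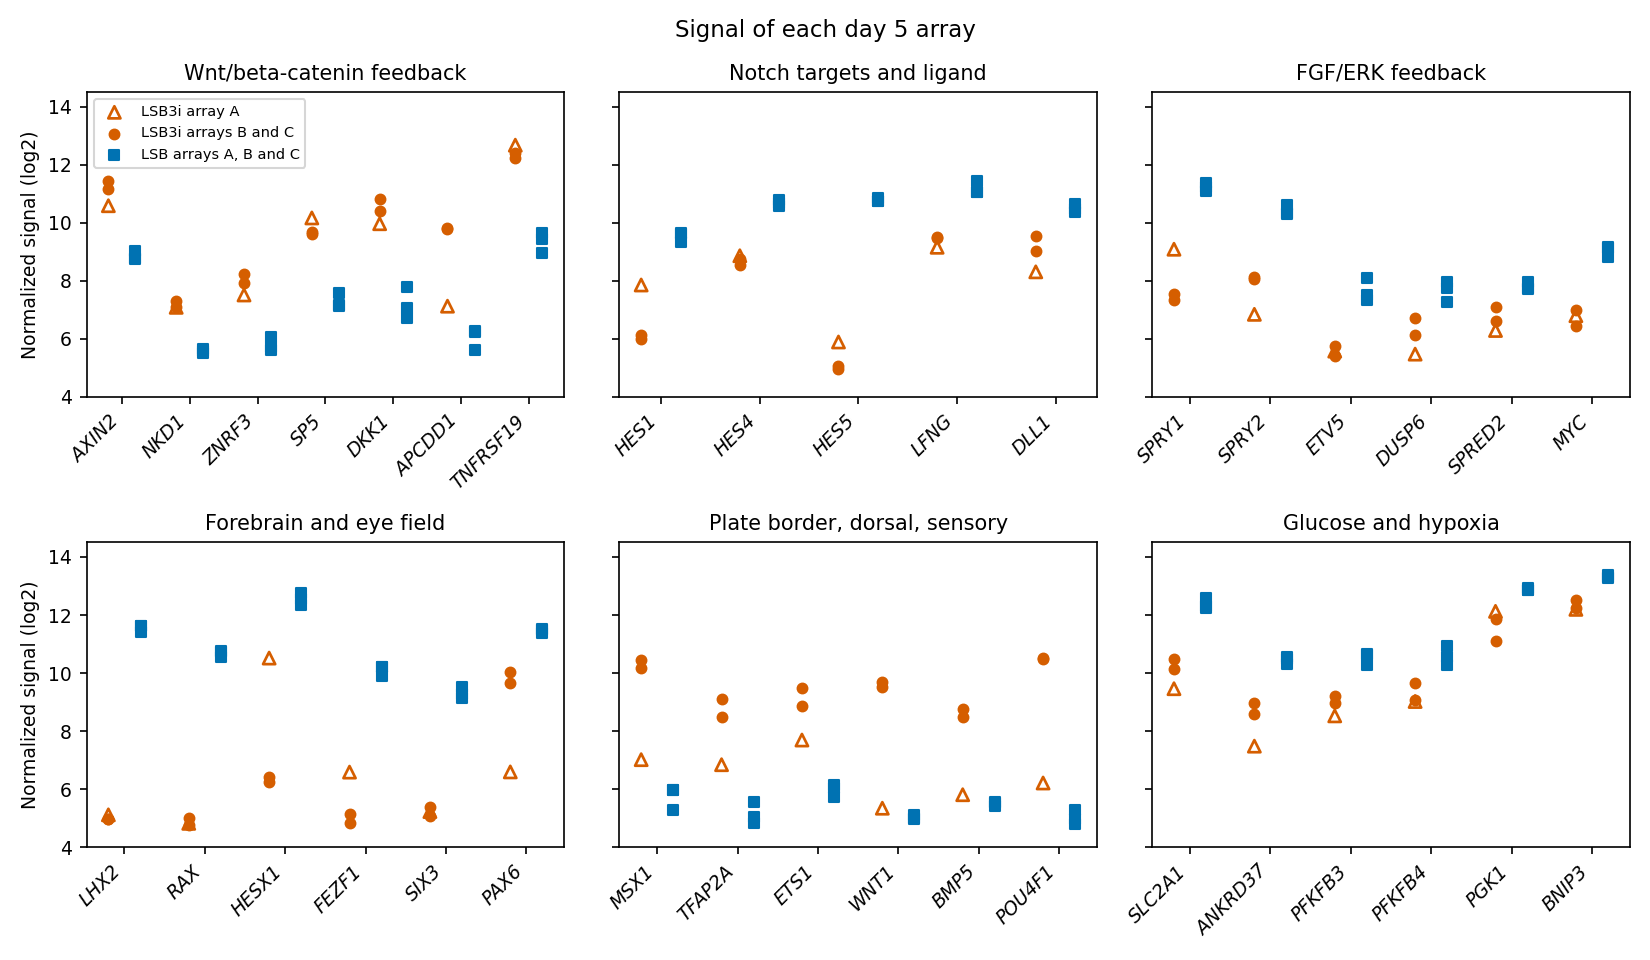
Normalized log2 signal (y axis) of each day 5 array for called genes of 6 groups, with LSB3i array A as open triangles, LSB3i arrays B and C as filled circles and the 3 LSB arrays as squares to their right. In the Wnt, Notch, FGF and glucose panels array A lies beside B and C for some genes and apart from them for others, such as HES1, SPRY1, SPRY2 and APCDD1. In the border panel array A lies between LSB and the other LSB3i arrays, with WNT1 and BMP5 close to LSB.

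Wnt feedback genes included 7 of 14 that rose. AXIN2, the scaffold of the beta-catenin destruction complex, had 10.58, 11.16 and 11.42 in LSB3i, against 8.79, 8.76 and 9.02 in LSB (2.20 ± 0.37, adjusted p = 0.000461). DKK1, a secreted antagonist of the LRP co-receptors, had 9.96, 10.82 and 10.40 in LSB3i, against 6.72, 7.08 and 7.78 in LSB (3.21 ± 0.59, adjusted p = 0.00124). Neither gene overlapped between groups, and array A was the lowest LSB3i array for both. TNFRSF19, a receptor of the TNF receptor family, had 12.67, 12.39 and 12.21 in LSB3i, against 8.97, 9.44 and 9.63 in LSB (3.08 ± 0.59, adjusted p = 0.00167), here with array A as the highest. ZNRF3, a ubiquitin ligase that removes Frizzled receptors, NKD1, which binds Dishevelled, and APCDD1, a membrane inhibitor of Wnt, were at background in LSB. They were at least 2.36-fold, 1.42-fold and 4.77-fold higher (adjusted p = 0.00178, 0.00837 and 0.00433). The other NKD1 probe differed by only 0.48, against a measured 1.58 for the one used. APCDD1 was the one of these in which array A stood apart, at 7.12, against 9.81 and 9.79 on B and C and 6.22, 6.27 and 5.63 in LSB.

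SP5, a zinc-finger factor transcribed directly by beta-catenin, had 10.16, 9.61 and 9.68 in LSB3i, against 7.17, 7.14 and 7.59 in LSB (2.51 ± 0.64, adjusted p = 0.0178), and did not pass without array A (adjusted p = 0.0616). Its promoter is shown because it was the 1 of 9 Wnt feedback genes with a RefSeq promoter that held the TCF/LEF letters ATCAAAG on either strand (CTTTGAT on the other, in capitals) in the 250 bases before its start, against 2.26% of all promoters. The first base lies 109 bases before the start.
SP5, GRCh38.p14, chr2:170715217-170715336, plus strand: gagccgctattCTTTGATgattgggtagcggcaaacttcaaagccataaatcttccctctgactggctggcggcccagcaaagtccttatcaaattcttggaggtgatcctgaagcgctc
Of 14 Wnt feedback and TCF genes tested, 7 rose and 2 fell, with a median of 1.33, or 0.79 with genes at background set to the floor. Without array A the counts were 6 and 0, and the medians were 0.71 on array A and 1.53 on arrays B and C. The 2 that fell were TCF7L2, a TCF factor itself (at least 1.5-fold lower, adjusted p = 0.0435), and SP8, a zinc-finger factor of the forebrain (adjusted p = 0.0443). LEF1, another of the TCF/LEF factors, differed by 1.07 ± 0.65, and neither it nor CCND1, a cyclin gene often used as a Wnt target, passed.

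Among 31 Wnt ligands, receptors, secreted antagonists and transducers, 2 rose and 8 fell, with or without array A, and the median was -0.04. WNT4 had 8.12, 8.56 and 8.81 in LSB3i, against 4.91, 5.04 and 5.32 in LSB, where it was at background, and was at least 3.58-fold higher (adjusted p = 4.52e-07). WNT1, a ligand of the midbrain and dorsal midline, was detected on LSB3i arrays B and C only, with 5.35, 9.53 and 9.70, against 5.11, 4.98 and 5.01 in LSB, and was at least 2.9-fold higher (adjusted p = 0.0021). Array A was thus like the LSB arrays for WNT1 but not for WNT4. The ligand gene WNT5B had 5.08, 6.71 and 7.12 in LSB3i, against 8.66, 8.48 and 8.85 in LSB (-2.36 ± 0.32, adjusted p = 3.79e-05). FZD5, a Frizzled receptor of the eye field, had 6.88, 5.62 and 5.31 in LSB3i, against 8.80, 8.33 and 8.84 in LSB (-2.73 ± 0.41, adjusted p = 0.000146). FZD2 and the co-receptor gene LRP5 fell less (-1.47 ± 0.35 and -1.17 ± 0.30). The other 4 genes that fell encode secreted proteins that bind Wnt or its co-receptors or resemble those that do, namely FRZB (-2.08 ± 0.45), SFRP2 (-1.83 ± 0.31), SFRP1 (-1.2 ± 0.30) and DKK3 (-1.14 ± 0.31). Of these 8 genes, FZD2, LRP5, SFRP1 and DKK3 lost their call when 1 array was left out, with adjusted p-values up to 0.0576, 0.128 and 0.126 without LSB3i array B for FZD2, LRP5 and DKK3 and 0.0957 without LSB3i array C for SFRP1. CTNNB1, AXIN1, GSK3A and GSK3B, the core of the pathway, did not pass.

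Of 17 feedback and other target genes of FGF and ERK signalling, called feedback genes for short, 6 fell. SPRY1, a Sprouty inhibitor of receptor tyrosine kinase signalling, had 9.09, 7.33 and 7.53 in LSB3i, against 11.24, 11.38 and 11.08 in LSB (-3.25 ± 0.37, adjusted p = 2.66e-06). SPRY2 had 6.84, 8.14 and 8.05 in LSB3i, against 10.60, 10.32 and 10.32 in LSB (-2.73 ± 0.51, adjusted p = 0.00151). Array A was the highest LSB3i array for SPRY1 and the lowest for SPRY2, and the groups did not overlap for either. The ERK phosphatase gene DUSP6 and ETV5, an ETS factor induced by FGF, were at background in LSB3i and at least 2.06-fold and 2.03-fold lower (adjusted p = 0.0143 and 0.000923). MYC had 6.80, 7.00 and 6.43 in LSB3i, against 9.16, 9.12 and 8.81 in LSB (-2.29 ± 0.35, adjusted p = 0.000163), and SPRED2 differed by -1.14 ± 0.29 (adjusted p = 0.0191). None of the 17 rose, and the median was -0.79, or -0.30 with genes at background set to the floor. Without array A 4 fell, and DUSP6 and SPRED2 did not pass (adjusted p = 0.0877 and 0.0955). SPRY4, ETV4 and IL17RD, which belong to the same feedback group, did not pass in either fit.

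Immediate-early genes, which many stimuli including ERK induce, did not follow the ERK feedback genes. Of 10, 3 rose and 0 fell. RHOB, a small GTPase, had 8.93, 9.19 and 9.31 in LSB3i, against 6.05, 6.16 and 5.99 in LSB, at background there, and was at least 5.61-fold higher (adjusted p = 2.32e-06). ATF3 had 8.31, 9.65 and 9.43 in LSB3i, against 7.17, 6.84 and 6.92 in LSB (2.15 ± 0.36, adjusted p = 0.000456). FOSB was at least 1.41-fold higher (adjusted p = 0.0416), from detection on 2 of the 3 LSB3i arrays, and FOS, EGR1 and DUSP1 did not pass. Of 19 FGF and VEGF ligands, receptors and partners, 2 rose and 1 fell. FGF8, a ligand of the anterior neural ridge and the midbrain-hindbrain boundary, had 5.44, 5.41 and 5.41 in LSB3i, against 8.63, 8.70 and 7.94 in LSB, and was at least 3.5-fold lower (adjusted p = 2.48e-07). FLRT3, a membrane protein that binds FGF receptors, had 12.76, 12.37 and 12.20 in LSB3i, against 10.42, 10.50 and 10.34 in LSB (2.02 ± 0.44, adjusted p = 0.00583). FGF12, an intracellular FGF relative, was at least 1.73-fold higher (adjusted p = 0.0097). FGFR1, FGFR3, FGFR4 and VEGFA did not pass. Both treatments contained the SMAD inhibitors. Of 10 genes listed as targets of BMP and TGF-beta SMADs, a list that also holds ligand genes such as INHBE, 2 rose and 0 fell. They were ID2, an inhibitor of helix-loop-helix factors (1.32 ± 0.31, adjusted p = 0.011), and INHBE, an activin subunit gene (at least 2.84-fold, adjusted p = 0.00162). ID2 was not called without LSB3i array B (adjusted p = 0.0518, limma).

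Forebrain and eye field regulators were among the genes with the lowest measured differences. LHX2, a LIM homeobox factor of the eye field and cortex, had 5.12, 4.99 and 4.97 in LSB3i, against 11.61, 11.62 and 11.41 in LSB, and was at least 30.4-fold lower (adjusted p = 2.46e-12). RAX, the retinal homeobox factor, had 4.83, 5.02 and 4.77 in LSB3i, against 10.75, 10.56 and 10.72 in LSB, and was at least 16.7-fold lower (adjusted p = 1.74e-16). SIX3, another eye field factor, was at least 6.46-fold lower (adjusted p = 4.27e-09). All 3 were at background on every LSB3i array, array A included. HESX1, a repressor of the anterior forebrain and pituitary, differed on array A, with 10.52, 6.42 and 6.26 in LSB3i, against 12.77, 12.54 and 12.35 in LSB (-4.82 ± 0.62, adjusted p = 1.72e-05). FEZF1, a forebrain zinc-finger factor, had 6.59, 5.15 and 4.83 in LSB3i, against 10.20, 10.20 and 9.90 in LSB (-4.58 ± 0.34, adjusted p = 7.6e-10), with array A the only one of the LSB3i arrays above background. PAX6, a factor of eye and neuroectoderm, ran the other way, with 6.60, 10.02 and 9.67 in LSB3i, against 11.36, 11.51 and 11.48 in LSB (-2.69 ± 0.61, adjusted p = 0.00829), and it did not pass without array A (-1.60, adjusted p = 0.0668).

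Of 16 forebrain and eye field genes, 7 fell and 1 rose, with a median of -1.43, or -1.30 with genes at background set to the floor. Without array A 6 fell and 1 rose, and LHX5, a forebrain LIM factor, passed only then. NR2F1, an orphan nuclear receptor, was the one that rose, on arrays B and C only, with 5.10, 10.20 and 10.52 in LSB3i, against 5.91, 5.35 and 5.39 in LSB, at least 3.86-fold (adjusted p = 0.0141). OTX2, which marks forebrain and midbrain together, was level, with 13.19, 13.07 and 13.06 in LSB3i, against 12.98, 12.89 and 13.11 in LSB. Of 21 neural progenitor genes, 4 fell and 0 rose, with or without array A, and the median was -0.50. SOX3, a SOXB1 factor of early neuroectoderm, had 5.91, 6.88 and 7.28 in LSB3i, against 10.03, 9.65 and 9.84 in LSB (-3.15 ± 0.51, adjusted p = 0.000304). DACH1 (-2.64 ± 0.42), SALL2 (-1.35 ± 0.25) and SOX4 (-1.26 ± 0.21) were the other 3, and SOX2, NES, MSI1 and ZIC2 did not pass.

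Of 14 genes of the plate border and dorsal midline, 4 rose and 0 fell, with or without array A. MSX1, a homeobox factor of the border and the BMP response, had 7.02, 10.17 and 10.44 in LSB3i, against 5.98, 5.99 and 5.27 in LSB, and was at least 5.87-fold higher (adjusted p = 0.00168). TFAP2A, a factor of border, crest and ectoderm, had 6.85, 8.50 and 9.10 in LSB3i, against 5.56, 5.04 and 4.83 in LSB, and was at least 2.81-fold higher (adjusted p = 0.000119). One of its 3 probes differed by -0.02. BMP5, a BMP ligand, was detected on arrays B and C only, with 5.81, 8.50 and 8.75 in LSB3i, against 5.57, 5.44 and 5.53 in LSB, and was at least 2.05-fold higher (adjusted p = 0.00195). WNT1, given above, was the fourth. The median of the list was 0.90, or 0.05 with genes at background set to the floor, and it was 0.09 on array A and 1.43 on arrays B and C. PAX3, PAX7, GDF7 and DLX5 did not pass.

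Of 20 neural crest genes, 4 rose and 0 fell, with a median of 0.14. They were TFAP2A, its relative TFAP2C (2.02 ± 0.40, adjusted p = 0.0025), ETS1, an ETS factor of migrating cranial crest, and ALX1, a homeobox factor of facial mesenchyme (1.16 ± 0.34, adjusted p = 0.0416). ETS1 had 7.70, 8.86 and 9.50 in LSB3i, against 5.74, 6.14 and 6.03 in LSB, and was at least 4.08-fold higher (adjusted p = 0.0016). Without array A 5 rose, ALX1 not among them. SNAI2, a repressor that acts as crest cells leave the epithelium, had 4.90, 9.10 and 9.28 in LSB3i, against 5.82, 6.53 and 5.93 in LSB, and was called only without array A (adjusted p = 3.91e-05, against 0.18 with it). TFAP2B, likewise, had 5.17, 7.32 and 7.86 in LSB3i, against 5.12, 4.90 and 4.93 in LSB (adjusted p = 0.00591 without array A, against 0.0847). SOX10 and FOXD3, which define crest, did not pass in either fit. Of 13 sensory neuron genes, 1 rose, POU4F1, a POU homeobox factor of sensory neurons, with 6.22, 10.53 and 10.50 in LSB3i, against 4.98, 5.29 and 4.79 in LSB, at least 5.37-fold (adjusted p = 0.000411). It was detected on arrays B and C. As 1.1% of all genes rose, 1 call of 13 says little of the list. With only the day 5 groups in the fit, the spread between array A and arrays B and C was not pooled with other days, and POU4F1, WNT1, BMP5 and NR2F1 were not called (adjusted p = 0.0611, 0.109, 0.101 and 0.185). ISL1, PRPH, SCN9A and TRPV1 did not pass, and 10 of the 13 genes were at background in each group. None of 5 placode genes was called (1 at an unadjusted p under 0.05, limma).

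Epithelial and contractile genes split array A from arrays B and C. CDH1, the epithelial cadherin, had 10.07, 6.26 and 5.84 in LSB3i, against 9.21, 8.72 and 9.07 in LSB, and EPCAM, an epithelial adhesion protein, had 11.34, 9.49 and 9.24 in LSB3i, against 10.70, 10.92 and 10.81 in LSB. Smooth muscle actin, ACTA2, had 9.00, 12.99 and 13.22 in LSB3i, against 10.72, 10.76 and 10.76 in LSB, and the actin-binding protein gene TAGLN had 11.17, 12.87 and 13.12 in LSB3i, against 11.76, 11.69 and 11.49 in LSB. On arrays B and C the first pair was below LSB and the second above it, and array A lay on the other side of all 3 LSB arrays for each of the 4 genes. None passed with all arrays (adjusted p = 0.158, 0.383, 0.401 and 0.357), and all 4 were called without array A (adjusted p = 1.78e-05, 0.0359, 3.18e-08 and 0.0299). Of 11 surface ectoderm and epithelial genes and 17 mesenchymal and smooth muscle genes, 0 were called with all arrays (2 and 1 at an unadjusted p under 0.05, limma), and without array A 2 fell and 2 rose.

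Posterior and midbrain genes had few tested members, 9 of 26, and the others, among them EN1, EN2 and GBX2, did not pass the filter on detection. Of these 9, 3 rose and 0 fell. IRX5, an Iroquois factor, had 10.15, 8.93 and 8.95 in LSB3i, against 7.02, 7.06 and 6.79 in LSB (2.38 ± 0.41, adjusted p = 0.00055), and IRX2 had 11.88, 10.80 and 10.71 in LSB3i, against 9.15, 9.17 and 9.46 in LSB (1.87 ± 0.37, adjusted p = 0.00234). Array A was the highest array for both, as it was for SP5, the other member. Outside the lists, the highest called genes held DMBX1 and BARHL1, homeobox factors of the midbrain, hindbrain and diencephalon. DMBX1 had 8.19, 9.33 and 9.71 in LSB3i, against 5.21, 5.30 and 4.99 in LSB (at least 5.35-fold, adjusted p = 0.000174), and BARHL1 had 9.54, 8.65 and 8.30 in LSB3i, against 5.80, 5.06 and 5.09 in LSB (at least 4.52-fold, adjusted p = 0.00312). These too were above the LSB arrays on array A. CNTN2, an axonal adhesion molecule and the 1 gene of 33 pan-neuronal genes that rose, had 10.30, 10.69 and 10.87 in LSB3i, against 7.06, 6.64 and 7.76 in LSB (3.47 ± 0.76, adjusted p = 0.00581). SYT1, a synaptic vesicle protein gene, was the 1 that fell (-1.01 ± 0.24, adjusted p = 0.0103), and without array A it missed the 2-fold limit (-0.99, adjusted p = 0.03). Over all genes 1.1% rose and 2.12% fell, so 1 call each way is near the background. TUBB3, DCX and STMN2 did not pass in either fit.

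The lowest called genes also held several outside the lists. GPC3, a glypican that binds growth factors at the cell surface, had 9.60, 9.39 and 8.83 in LSB3i, against 13.26, 13.31 and 13.01 in LSB (-3.92 ± 0.27, adjusted p = 1.28e-10). PRSS23, a serine protease gene, had 7.91, 8.77 and 8.21 in LSB3i, against 11.71, 11.82 and 11.51 in LSB (-3.38 ± 0.32, adjusted p = 1.01e-07). RIPPLY3, a transcriptional corepressor gene, had 5.91, 6.66 and 6.93 in LSB3i, against 10.68, 10.87 and 10.33 in LSB (-4.13 ± 0.54, adjusted p = 2e-05). The groups were far apart in these genes on every array. DENND1A, a protein-coding neighbour of LHX2 on chromosome 9 in the RefSeq table, had 6.19, 6.11 and 5.86 in LSB3i, at background, against 9.60, 9.72 and 9.46 in LSB, and was at least 7.86-fold lower (adjusted p = 4.52e-07). Its other probe differed by -2.74. Among the highest, SLC1A3, a glutamate transporter gene of radial glia (2.79 ± 0.48), CACHD1 (2.72 ± 0.31), COLEC12, a scavenger receptor gene (3.03 ± 0.63), and NRIP3 (2.65 ± 0.69) were above LSB on all 3 arrays. COLEC12 had 7.37, 10.45 and 10.48 in LSB3i, against 5.94, 6.18 and 7.11 in LSB, so array A lay near LSB. With the day 5 groups fitted alone COLEC12 was not called (adjusted p = 0.0643, limma). NRIP3 was not called without LSB array A (adjusted p = 0.105, limma), nor when LSB array B, LSB3i array B or LSB3i array C was left out.

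Of 31 genes of the hypoxia response and of glycolysis, 10 fell and 0 rose. SLC2A1, the glucose transporter GLUT1, had 9.46, 10.15 and 10.49 in LSB3i, against 12.58, 12.25 and 12.31 in LSB (-2.34 ± 0.27, adjusted p = 3.38e-06). ANKRD37, a target of the hypoxia factor HIF1, had 7.48, 8.60 and 8.98 in LSB3i, against 10.55, 10.30 and 10.47 in LSB (-2.09 ± 0.43, adjusted p = 0.00329). PFKFB3, which makes the activator of phosphofructokinase, had 8.53, 8.96 and 9.20 in LSB3i, against 10.66, 10.28 and 10.62 in LSB (-1.63 ± 0.28, adjusted p = 0.000496). In each of these 3 genes array A was the lowest of the 6 arrays. PFKFB4 (-1.33 ± 0.31), the collagen prolyl hydroxylase gene P4HA2 (-1.5 ± 0.37), the glycolytic enzyme genes ALDOC (-1.17 ± 0.34) and PGK1 (-1.19 ± 0.29), the MYC antagonist gene MXI1 (-1.16 ± 0.34), the mTOR inhibitor gene DDIT4 (-1.01 ± 0.26) and the mitophagy gene BNIP3 (-1.0 ± 0.26) completed the 10 that fell. All 31 differences were negative, with a median of -0.82, on array A -0.86 and on arrays B and C -0.75. Without array A 7 fell, and MXI1, DDIT4 and BNIP3 did not pass. ALDOC, P4HA2, PFKFB4 and PGK1 lost their call when another day 5 array was left out (adjusted p up to 0.186, 0.142, 0.0754 and 0.138, limma). SLC2A1, ANKRD37 and PFKFB3 were called under every alternative. The other MXI1 probe differed by only -0.28. GAPDH, LDHA and ENO1 did not pass in either fit.

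Of 30 stress and amino acid response genes, 6 rose and 0 fell. DDIT3, the stress factor CHOP, had 8.09, 8.33 and 8.09 in LSB3i, against 6.31, 6.41 and 5.78 in LSB, at background there, and was at least 2.86-fold higher (adjusted p = 0.000457). MTHFD2, a mitochondrial folate enzyme, had 12.48, 12.35 and 12.26 in LSB3i, against 10.83, 11.17 and 11.39 in LSB (1.23 ± 0.23, adjusted p = 0.00162). ASNS, asparagine synthetase, differed by 1.3 ± 0.29, and PSPH, of serine synthesis, by 1.21 ± 0.30. The cystine transporter gene SLC7A11 was at least 1.21-fold higher (adjusted p = 0.00216). ATF3 was the sixth. The median of the list was 0.61, and 28 of the 30 differences were positive. The median was 0.65 both on array A and on arrays B and C. Without array A 5 rose, PSPH no longer passing. Of 11 p53 targets, 1 rose, CDKN1A, the cell cycle inhibitor p21 (1.18 ± 0.29, adjusted p = 0.0159), which did not pass without array A (adjusted p = 0.0914). Of 20 cholesterol synthesis genes, 1 rose, SC5D (1.23 ± 0.27, adjusted p = 0.00567), and without array A 0 did (SC5D adjusted p = 0.0501, limma). Over all genes 1.1% rose, so 1 call says little of the p53 list or the cholesterol list.

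Of 25 guidance genes, 5 fell and 0 rose (median -0.38), and without array A 2 fell. The Eph receptor gene EPHA1 had 7.40, 4.99 and 5.35 in LSB3i, against 7.83, 7.71 and 7.68 in LSB (-1.83 ± 0.50), and SEMA4D, a semaphorin, differed by -1.07 ± 0.26. These 2 held without array A, whereas EPHA4, EFNB2 and ROBO1 did not (adjusted p = 0.119, 0.328 and 0.0903). EPHA1 lost its call when any other day 5 array was left out (adjusted p up to 0.215, without LSB3i array B). SEMA4D lost its call without LSB3i array C and without LSB array C (adjusted p up to 0.0557, without LSB array C). Of 33 matrix and integrin genes, 5 fell and 0 rose (median -0.38), and without array A 2 fell. FBN2, a fibrillin, had 9.18, 10.09 and 10.05 in LSB3i, against 11.75, 11.59 and 11.84 in LSB (-1.95 ± 0.27, adjusted p = 5.5e-05). ITGAV, an integrin subunit gene (-1.15 ± 0.18), and the collagen genes COL18A1 (-1.3 ± 0.35), COL4A1 (-1.06 ± 0.22) and COL11A1 (-1.02 ± 0.29) were the other 4. FBN2 and COL18A1 were called without array A. ITGAV and COL4A1 then kept an adjusted p under 0.05 and missed only the 2-fold limit (-0.99, adjusted p = 0.00161, and -0.92, adjusted p = 0.0267), and COL11A1 missed the adjusted p (0.238). Proliferation genes did not pass. Of 25 DNA replication genes and 28 mitosis genes, 0 were called with or without array A, and 26 of the 28 mitosis differences were below 0 (median -0.24). None of 12 retinoid genes was called with all arrays. Of 12 D-type cyclin and CDK inhibitor genes and their regulators, CDKN1A rose and MYC fell. At an unadjusted p under 0.05 (limma), 1 of the 25 replication genes, 3 of the 28 mitosis genes and 2 of the 12 retinoid genes differed.

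**Figure D4:**
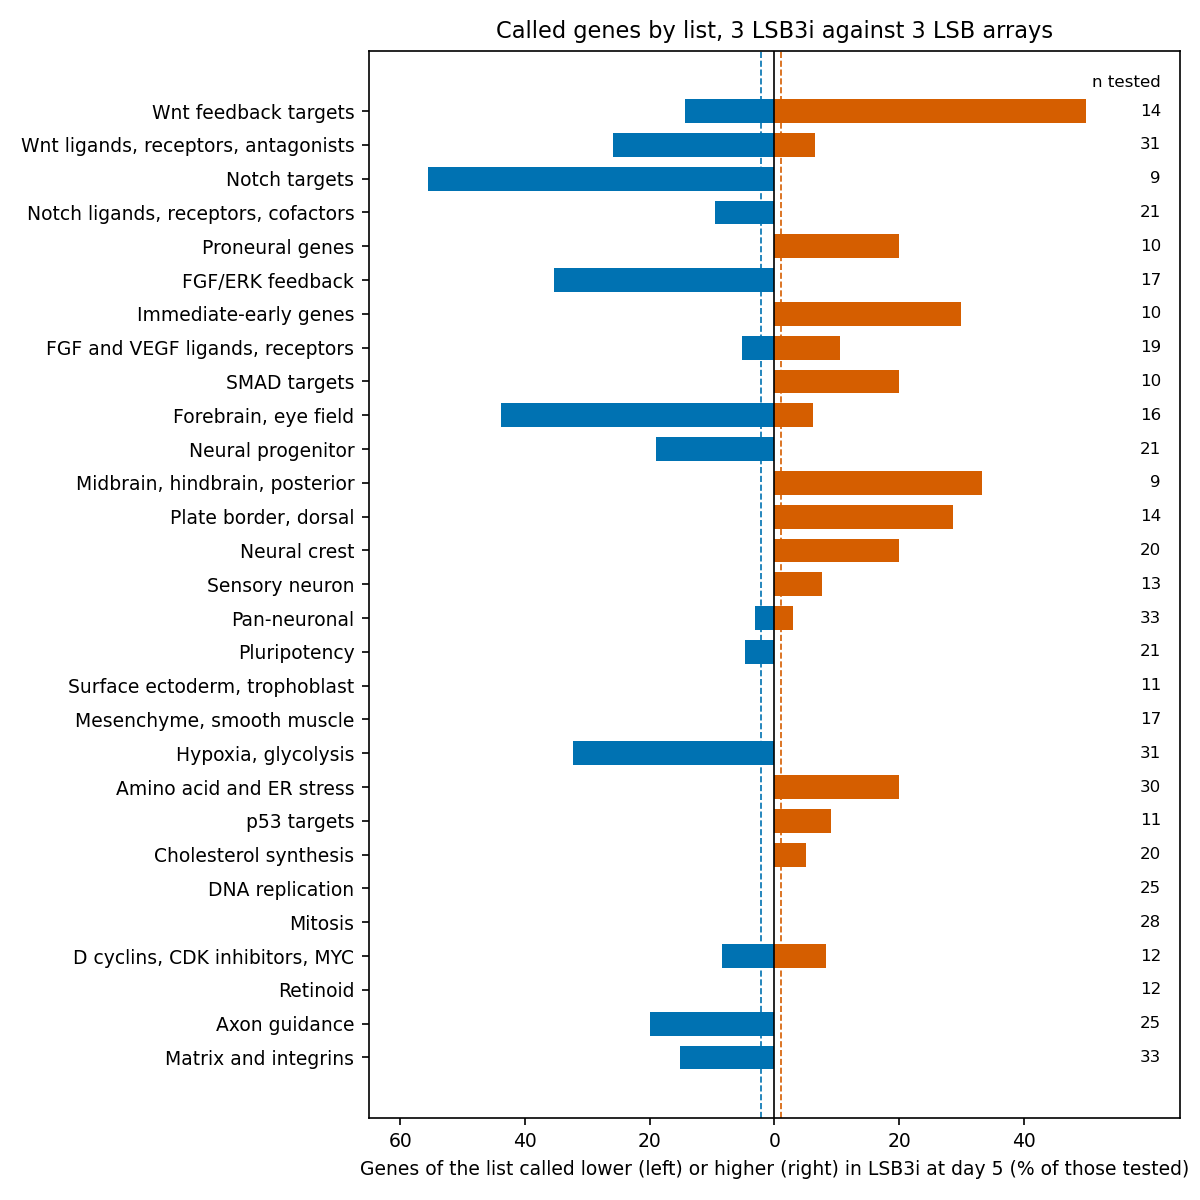
Share of each list's tested genes called lower (left, blue) or higher (right, orange) in LSB3i than in LSB at day 5, with all 3 arrays per group and the number tested at the right. The dashed lines mark 2.12% and 1.1% of all genes, and Notch targets (5 of 9) and Wnt feedback genes (7 of 14) extend farthest on their sides, while lists of fewer than 9 tested genes are not drawn.

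Defining markers showed which cells the label could cover. Of 5 pluripotency markers with a probe, LIN28A, DPPA4 and ZFP42 were detected on all arrays of both groups, NANOG on none, and POU5F1 on 1 LSB3i array, array A (8.10, against 5.24 and 5.53 on B and C and 5.68, 5.32 and 6.24 in LSB). The summed signal of the 5 ranged from 26250 to 32483 in LSB3i and from 26842 to 32213 in LSB. Of 7 neural progenitor markers, PAX6, SOX2, NES, ZIC2 and MSI1 were detected on all arrays of both groups, and SOX1 and ZIC1 on none, so a neural label rests on 5 of 7. Their sum was 19301 to 20664 in LSB3i and 29395 to 34153 in LSB. The 5 neural crest markers summed to 994 to 2961 in LSB3i and 921 to 1016 in LSB. The 8 mesoderm and endoderm markers (TBXT, MIXL1, TBX6, EOMES, SOX17, FOXA2, GATA4 and GATA6) and the 4 surface ectoderm markers with a probe were detected on no array of either group. The 5 mesenchyme markers summed to 1412 to 13125 in LSB3i, a range set by ACTA2, against 2647 to 3073 in LSB. Among pluripotency genes, L1TD1, an RNA-binding protein gene of stem cells, fell (10.34, 8.45 and 8.01 in LSB3i, against 11.19, 10.94 and 11.02 in LSB, -2.12 ± 0.51, adjusted p = 0.0128), the 1 called of 21, though not without LSB3i array C (adjusted p = 0.107). Over all genes 2.12% fell, so 1 call of 21 says little of the pluripotency list. Of 3 endothelial and blood genes tested, VWF fell (-2.14 ± 0.50, adjusted p = 0.0095) and 0 rose. VWF was not called without LSB3i array B (adjusted p = 0.071, limma) or without LSB3i array C. The endothelial gene TEK differed by 0.93 in the other direction and did not pass. A single call among so few genes says little of this list. The part of these markers in the results above was not tested.

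Day 5 was then set against the measured days on either side, which share no arrays with it. At day 3, 26 genes (0.259%) were called, 5 higher (0.0498%) and 21 lower (0.209%) in LSB3i. At day 7, 1938 genes (19.3%) were called, 1285 higher (12.8%) and 653 lower (6.51%). The LSB arrays A, B and C of day 7 were dim, with 11089, 10789 and 9320 probes detected. The LSB3i arrays of that day had 12918, 13356 and 12996. The part of this in the day 7 counts was not tested, and the day 7 comparison itself was not run under the alternatives. Of the day 5 genes, 11 were called in the same direction at day 3, which is 42.3% of the day 3 genes and 3.41% of the day 5 genes. At day 7, 226 were called in the same direction and 0 in the opposite one, which is 70.0% of the day 5 genes and 11.7% of the day 7 genes. The difference of effects itself was called for 22 genes (0.219%) between day 5 and day 3, 5 above 0 (0.0498%) and 17 below 0 (0.169%). Each SE rests on a spread per gene pooled over all 33 arrays, so it is the same on each day and does not show that day's own spread. Notch genes were among those that moved most between these days. The difference between LSB3i and LSB in HES1 was -0.11 ± 0.34 at day 3, -2.86 ± 0.34 at day 5 and -2.91 ± 0.34 at day 7, and the day 5 effect minus the day 3 effect was -2.76 ± 0.48 (adjusted p = 0.00516). HES5 (adjusted p = 1.89e-05) and HES4 (-1.87 ± 0.40, adjusted p = 0.0425) were called as well. DLL1 had a difference of 1.0 ± 0.27 at day 3, -1.53 ± 0.27 at day 5 and -2.69 ± 0.27 at day 7 (day 5 minus day 3 -2.53 ± 0.38, adjusted p = 0.00065). SPRY1 (-2.73 ± 0.53, adjusted p = 0.023), SLC2A1 (-2.27 ± 0.39, adjusted p = 0.00448), WNT5B (-2.26 ± 0.45, adjusted p = 0.0262) and GPC3 (-2.59 ± 0.38, adjusted p = 0.000428) also had more negative effects at day 5. For LHX2, RAX, FGF8 and TFAP2A, at background in 1 group at day 5, the adjusted p was 2.99e-08, 2.41e-09, 0.000194 and 0.0475.

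Wnt feedback genes did not pass at day 3. AXIN2 differed by 1.4 ± 0.37 at day 3 (adjusted p = 0.197), 2.20 ± 0.37 at day 5 and 3.04 ± 0.37 at day 7, and of the 14 feedback genes 0 were higher at day 3, 7 at day 5 and 8 at day 7. For AXIN2 and DKK1 the difference between the effects of day 5 and day 3 was not called (adjusted p = 0.99995 and 0.187). Notch targets showed 0, 5 and 4 lower genes on the 3 days, FGF and ERK feedback genes 0, 6 and 3, and hypoxia and glycolysis genes 0, 10 and 10. Each of these 3 lists also had 2 higher genes at day 7 and 0 on the earlier days. Border and dorsal genes showed 0, 4 and 10 higher and 0, 0 and 1 lower, and neural crest genes 0, 4 and 14 higher and 0, 0 and 1 lower. Some lists already had calls at day 3. Forebrain and eye field genes showed 3, 7 and 9 lower and 0, 1 and 1 higher. Immediate-early genes showed 2, 3 and 4 higher and 0 lower on each day. Wnt ligands, receptors, antagonists and transducers showed 1, 2 and 6 higher and 0, 8 and 7 lower. The background shares are those given above for each day, and the limit given there for the dim LSB arrays of day 7 holds for these counts too.

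Metallothionein genes, whose proteins bind zinc and copper, were called at days 3 and 7 but not at day 5. Of 7 tested, 5 were lower in LSB3i at day 3, 0 at day 5 (1 at an unadjusted p under 0.05, limma) and 6 at day 7. MT2A differed by -1.91 ± 0.22 at day 3, 0.49 ± 0.22 at day 5 and -2.38 ± 0.22 at day 7, and both steps were called (day 5 minus day 3 2.41 ± 0.32, adjusted p = 0.000105, and day 7 minus day 5 -2.88 ± 0.32, adjusted p = 1.39e-05). Its mean level in LSB3i was 9.62, 9.92 and 9.56 on days 3, 5 and 7, and in LSB 11.54, 9.42 and 11.94, so the LSB arrays of day 5 were the low ones. MT1X was called between days 5 and 3 (adjusted p = 0.0262) and MT1G between days 7 and 5 (-3.22 ± 0.62, adjusted p = 0.0103). These genes are near-identical copies, and probes for one may read another, so the 7 are not independent.

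Between day 7 and day 5 the effect differed in 358 genes (3.57%), 248 above 0 (2.47%) and 110 below 0 (1.1%). With arrays scaled to a common median, the median of all genes moved by over 0.1, to -0.17 from 0.09, and the split turned to 123 above and 474 below 0, so the direction of this comparison as a whole depends on the scaling. The genes with the largest differences included LMX1A, a roof plate factor (3.76 ± 0.89, adjusted p = 0.0237), CDH6, a cadherin of the neural crest (3.94 ± 1.05, adjusted p = 0.0374), and ERBB3, a receptor of crest and glia (3.21 ± 0.69, adjusted p = 0.0146). At day 5, LMX1A had 7.15, 9.25 and 9.33 in LSB3i, against 7.28, 7.28 and 7.54 in LSB, and CDH6 had 5.34, 9.23 and 9.47 in LSB3i, against 8.29, 8.26 and 8.01 in LSB. Arrays B and C of LSB3i were above all LSB arrays for both, and array A was below them. NPTX1, a pentraxin gene of neurons, fell at day 5 (-2.84 ± 0.62) and was not called at day 7 (0.92 ± 0.62, with a day 7 minus day 5 difference of 3.76 ± 0.88, adjusted p = 0.0228). The LSB arrays of day 7 had the widest spread of the series, with a residual SD of 0.81, against 0.21 in LSB and 0.38 in LSB3i at day 5. The pooled SE does not carry this difference.

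**Figure D5:**
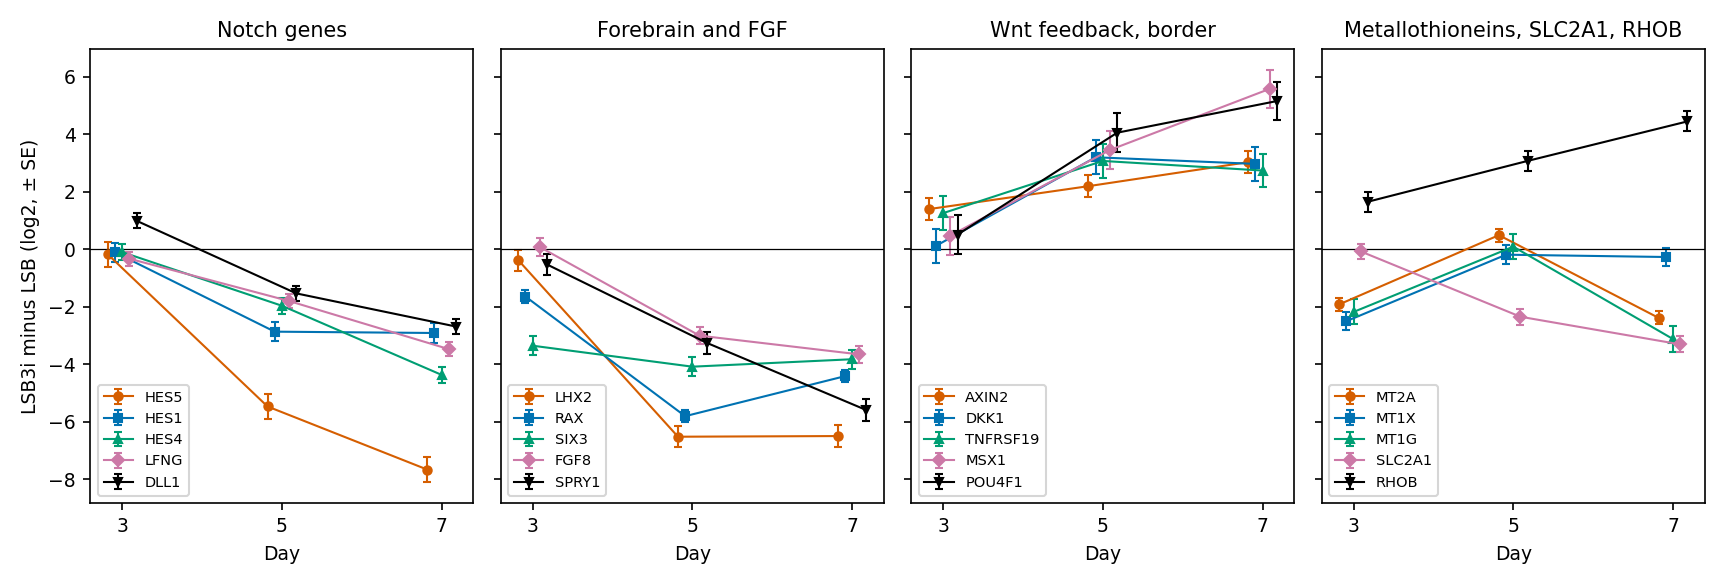
Difference between LSB3i and LSB (log2 ± SE, y axis) at days 3, 5 and 7 (x axis) for 20 genes in 4 panels, offset sideways for legibility, with genes at background drawn at their measured values. Each SE uses a spread per gene pooled over all groups and does not show the spread of its own day. HES genes, LHX2, FGF8 and SLC2A1 are near 0 at day 3 and negative at day 5, DLL1 is above 0 at day 3 and below 0 afterwards, SIX3 is negative on all 3 days, and MT2A and MT1G are near 0 at day 5 alone.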

How the data were processed

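Total RNA of H9 cells was hybridised to Illumina bead arrays, 3 arrays (A, B, C) for each of 11 groups. The deposited intensity of each of 48803 probes is the authors' non-normalized signal, with a detection p-value per probe and array that the authors deposited beside it. The submitters' processing notes name GenomeStudio without a version. Arrays carry no read depth: their number limits the precision. The authors' deposited processed intensity table was used only as an alternative, because just 2395 of its 48780 probes that could be matched by rank (4.91%) carried the same probe ID as in the non-normalized table.

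Signals were background-corrected with the normexp model on the detection p-values (offset 16), quantile-normalized and put on the log2 scale in limma 3.58.1 (R 4.3.3). A probe was tested if each of the 3 arrays of some group had a detection p below 0.01 (14651 probes). Of all probes, 28098 had 1 gene symbol in the platform annotation, 13 had several and 20692 had none here; symbols were updated through Entrez numbers for 28059. Of several probes per gene the one with the highest mean was used, and for 5 called genes (GPRC5C, HEY1, ME3, PPP2R2B and TFAP2A) the probes differed in sign. All 11 groups were fitted as means (22 residual degrees of freedom, lmFit and eBayes), and p-values were adjusted over the 10038 genes by Benjamini-Hochberg. A gene was called at an adjusted p under 0.05 and a log2 difference of at least 1. The same fit gave the differences of effects between days. Data were simulated with the measured means and 1 pooled spread per gene, the same in all groups. In these, 73% of genes changed by 1.5 on the log2 scale and 99% of those changed by 2.5 were recovered at day 5. For the difference between days 5 and 3 these shares were 53% and 91%, and between days 7 and 5 they were 55% and 92%. The measured residual SD differed between groups, from 0.21 in LSB at day 5 to 0.81 in LSB at day 7. The shares therefore describe the simulated setting and may not hold for the data. Genes were named if they belonged to a list, to the 25 highest or 25 lowest called genes, or to the 15 largest called differences of effects. The groups compared and the lists were chosen with earlier results of these data known. The alternatives tried are background correction, scaling, filter, choice of probe, groups in the fit, array weights, the replicate letter as a block, the authors' processed values, and leaving out arrays. Promoter sequences are from RefSeq (GRCh38.p14).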

Additional observations from a re-analysis of the deposited data

Results flagged for a closer look

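Effects of LSB3i against LSB that differed between days in the test of the difference itself were called for 22 genes between day 5 and day 3 and for 358 genes between day 7 and day 5. Below 0 in the day 5 effect minus the day 3 effect were LHX2 (-6.14 ± 0.52), HES5 (-5.29 ± 0.62), RAX (-4.16 ± 0.31) and FGF8 (-3.08 ± 0.42), all at background in LSB3i at day 5, so that these are differences of measured values and not bounds. HES1 (-2.76 ± 0.48), SPRY1 (-2.73 ± 0.53), GPC3 (-2.59 ± 0.38), DLL1 (-2.53 ± 0.38), SLC2A1 (-2.27 ± 0.39), WNT5B (-2.26 ± 0.45) and HES4 (-1.87 ± 0.40) were below 0 as well. Above 0 were TFAP2A (2.90 ± 0.63), at background in LSB, and the metallothionein genes MT2A (2.41 ± 0.32) and MT1X (2.31 ± 0.46). In the day 7 effect minus the day 5 effect, CDH6 (3.94 ± 1.05), LMX1A (3.76 ± 0.89), NPTX1 (3.76 ± 0.88) and ERBB3 (3.21 ± 0.69) were above 0, and MT1G (-3.22 ± 0.62) and MT2A (-2.88 ± 0.32) below 0. Values are log2 ± SE from limma, and array A of LSB3i is included in each.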

How the results depend on the processing

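The main counts at day 5 were 110 genes higher and 213 lower. The authors' processed values gave 59 and 111, array weights 211 and 428, and leaving out the LSB3i arrays A of days 3 to 9 gave 165 and 329. Leaving out 1 day 5 array in turn gave 71 to 118 higher and 125 to 250 lower, with the lowest counts without LSB array C (71 higher and 141 lower) and without LSB array A (75 and 125). Counts under the other alternatives lay within 1.5 times of the main ones. The replicate letter as a block gave 109 and 213. Same-letter arrays of the 2 day 5 groups did not deviate together (correlations of deviations of -0.0035 for A, 0.072 for B and 0.058 for C), so the letters were not taken as pairs. The block ended the day 5 calls of EFNB2, FOSB, SP8 and TCF7L2 and the day 5 minus day 3 call of HES4.

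Of 104 called genes printed with a day 5 value, 52 were called under every alternative in which they were tested, among them AXIN2, DKK1, TNFRSF19, WNT4, HES1, HES4, HES5, LFNG, DLL1, SPRY1, SPRY2, MYC, FGF8, LHX2, RAX, SIX3, SOX3, MSX1, ETS1, GADD45G, SLC2A1 and ATF3. The other 52 lost their call under at least 1 alternative: 21 without LSB3i array A, 27 without B, 21 without C, and 31, 23 and 24 without LSB array A, B and C, so no single array accounts for them. With the day 5 groups fitted alone, 12 lost their call, and with the authors' processed values 29 did. The direction reversed for TFAP2A with probes detected on at least 17 arrays (-0.0231), where another probe of the gene remained, and for no other of the genes printed.

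The difference of effects between day 5 and day 3 was called for 22 genes, 13 with no filter on dim probes, 388 with array weights, 106 without the LSB3i arrays A of days 3 to 9, and 9 to 43 with 1 array left out, the highest without LSB3i day 5 array A and the lowest without LSB day 3 array A or B. DLL1, FGF8, GPC3, HES5, LHX2, MT2A and RAX kept this call under every alternative, and HES1, HES4, MT1X, SLC2A1, SPRY1, TFAP2A and WNT5B did not. Between day 7 and day 5 it was called for 358 genes, 597 with median scaling, 190 with no filter, 224 with the authors' processed values, 65 with only the groups of these days, 1044 with array weights, 716 without the LSB3i arrays A, and 63 to 831 with 1 array left out, the lowest without LSB3i day 7 array B and the highest without LSB day 7 array B. MT2A kept this call under every alternative, and CDH6, ERBB3, LMX1A, MT1G and NPTX1 did not. Except for the change of probe for TFAP2A, the cause of these changes was not tested. Probes near background limit the measured differences, which is why bounds are given.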
